A study of Mus musculus with 18 samples.

Results

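The 9 genes described here build the class I antigen presentation route of mouse cells. They are B2m, H2-K1, H2-D1, Psmb8, Psmb9, Psmb10, Tap1, Tap2 and Tapbp. B2m lies on chromosome 2, Psmb10 on chromosome 8 and the other 7 on chromosome 17 of the mouse reference GRCm38.p6. Every probe set whose annotation gives exactly 1 gene symbol, and that symbol one of the 9, was taken, whatever its value. The rule found 20 probe sets, of 29131 with 1 symbol and 36701 in all: 16 on chip A, 1 on chip B and 3 on chip C of the Affymetrix MGU74v2 series. By genes, these were 9 of 15964.

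The arrays compare cells sorted from retinas of FVB/N mice that are homozygous for a Tie2-GFP transgene, at postnatal day 8. GFP-positive cells (GFP-pos) are the endothelial population and GFP-negative cells (GFP-neg) the non-endothelial control, both from the same transgenic strain and age, with no treatment in the labels. Retinas were pooled and dissociated with papain, and the sorted cells' RNA was amplified before labelling. Each population had 3 arrays on each chip, 18 in all. The labels do not say that the 3 arrays came from separate animals or sorts, and if they share a source, the p-values reflect only technical spread. The Tie2 promoter that drives GFP is active in endothelium and is also known to be active in some cells of the blood lineage. GFP-neg is a mixture of the other retinal cells.

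Class I molecules show samples of a cell's own proteins to CD8+ T cells. The proteasome cuts proteins into peptides, the TAP transporter moves these into the endoplasmic reticulum, tapasin holds an empty class I molecule against the transporter, and the loaded complex of heavy chain and beta-2-microglobulin travels to the cell surface. Under interferon the proteasome exchanges its 3 catalytic subunits for the immunoproteasome subunits encoded by Psmb8, Psmb9 and Psmb10. Endothelial cells are known to carry class I, while neurons of the healthy nervous system are known for low levels of it.

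Endothelial markers bore out the sort, with 10 of 12 higher in GFP-pos and a median log2 difference of 3.88, and 8 of 12 markers of retinal neurons and glia were lower. Over all genes, by 1 probe set each, 9.42% were higher and 11.2% lower. Tek, the gene whose promoter drives the transgene, read 547, 537 and 240.4 on the GFP-pos arrays of chip A and 9.48, 8.58 and 6.62 on the GFP-neg arrays. Kdr and Pecam1, which encode a VEGF receptor and an adhesion molecule of endothelium, did not pass the test, with log2 differences of 0.01 and -0.05. GFP-pos replicate 3 stood apart on every chip. Its rank correlation with the other arrays of its population was 0.911 to 0.929, whereas every other pair within a population reached 0.960 to 0.987. It read at least 4 times the mean of the other 2 GFP-pos arrays in 633 of the 36701 probe sets of the 3 chips. Of the 20 probe sets of the 9 genes 0 were among them, which at so small a share says nothing particular about these genes. For these 20 the same ratio ran from 0.395 for Psmb8 probe set 102791_at to 2.04 for Tapbp probe set 102689_at. Array medians were 43.3 to 44.5 on chip A, 40.7 to 44.5 on B and 32.5 to 34.4 on C, in arbitrary intensity units, and the number of arrays limits the precision.

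Of the 20 probe sets, 13 were higher in GFP-pos and 0 were lower, and each of the 9 genes had at least 1 probe set that was higher. Higher means an adjusted p under 0.05 in limma, fitted to log2 of intensity plus 16 on the 3 arrays of each population and adjusted by Benjamini-Hochberg over all probe sets of the chip. At an unadjusted p under 0.05, 15 probe sets were higher and 0 lower, against 15.8% and 14.1% of all probe sets of the 3 chips. On chip A 12 of the 16 were higher, where 9.09% of all probe sets of the chip were higher and 9.25% lower. In 14 of those 16 all GFP-pos arrays lay above all GFP-neg arrays, which 19.8% of the chip's probe sets did. On chip C 1 of 3 was higher, against 3.4% of that chip higher and 5.88% lower, and the single probe set on chip B did not pass, where 9.6% were higher and 11.3% lower. The ratio of mean intensities in the 13 ran from 2.23 to 18.1. Without GFP-pos replicate 3 the same 13 were higher, while 13.0% of all probe sets were higher and 13.1% lower. Of the 13, 9 were called whichever 1 of the 6 arrays was left out. The calls of Psmb10, and of Tap2, which was higher only by its chip C probe set, held in 2 of those 6 fits. The arrays measure bulk RNA, so a lower share of expressing cells and less RNA per cell cannot be told apart. A probe set's intensity depends on its probes, so readings of different probe sets are not compared as levels of their genes, and brightness only decided which probe set or gene to name.

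**Figure D1:**
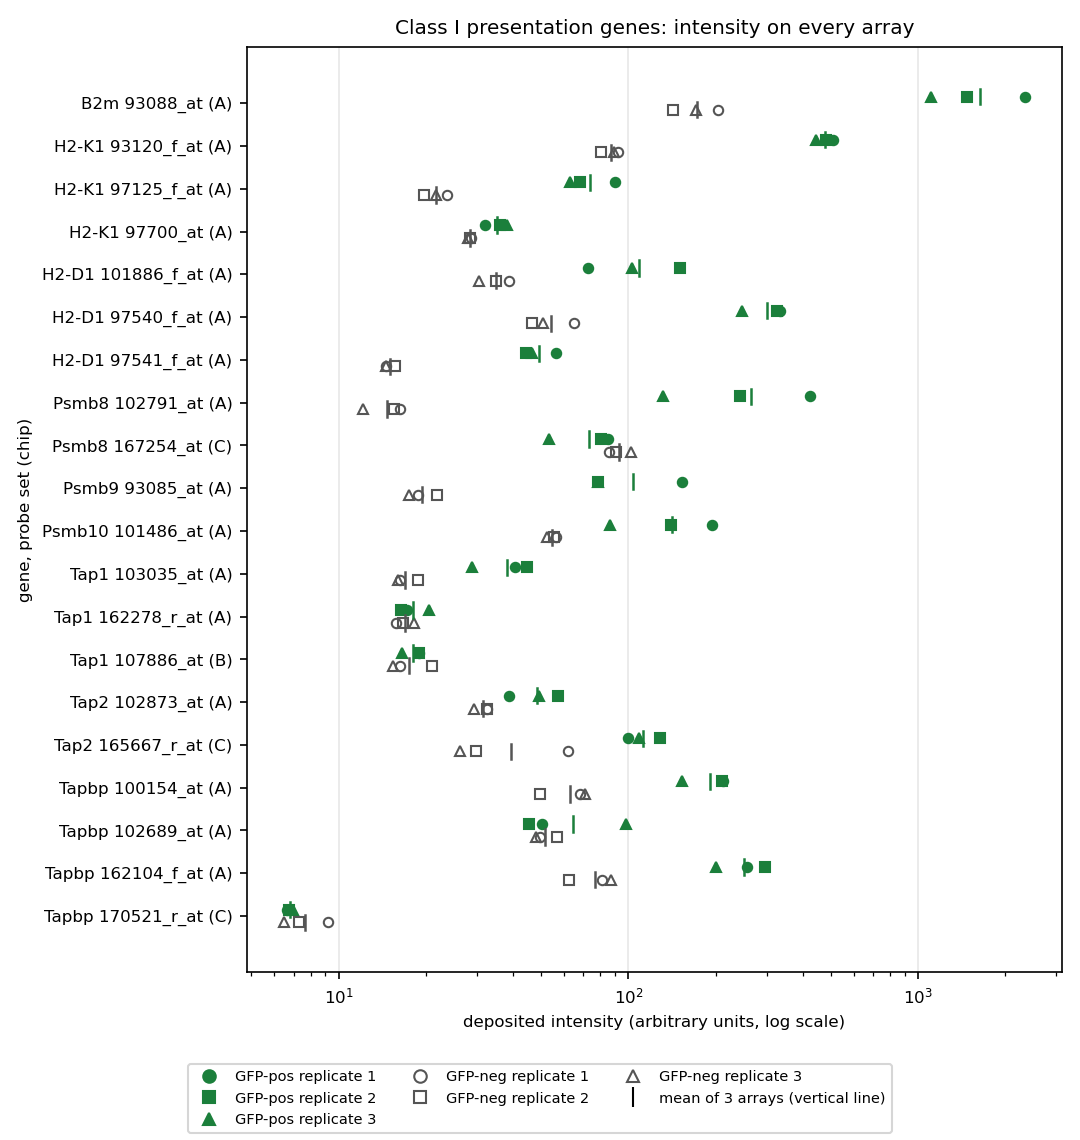
The plot gives the deposited intensity (arbitrary units, log axis) of each of the 20 probe sets on each array, filled symbols for GFP-pos and open symbols for GFP-neg, with a vertical line at the mean of 3 arrays. The filled symbols lie to the right of the open ones without overlap in 15 rows and to the left in 1, Psmb8 167254_at, and the Tap1 rows of 162278_r_at and 107886_at and Tapbp 102689_at and 170521_r_at overlap; in the Psmb9 row the symbols of GFP-pos replicates 2 and 3 coincide.

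The class I genes are known targets of interferon and of NF-kappa B, so the bases before their starts were read from RefSeq promoter windows of GRCm38.p6, 250 bases before to 50 after the start. These are of the reference genome and not of the FVB/N mice. Of the 9 genes 8 have an entry, with 9 windows, as H2-K1 has 2 starts. Tap2 has none. Searched on both strands were an interferon response element core, GAAANNGAAA, in 3.44% of the 32851 windows of all genes; a gamma-activated site, TTCNNNGAA, in 8.3%; and a kappa B site, GGGNNTTNCC, in 4.79%. Windows of 4 of the 8 genes held none of these letters, namely Psmb9, Psmb10, Tap1 and Tapbp, and a kappa B match stood in 3, B2m, H2-K1 and H2-D1. A match is a run of letters and not a bound site. Each motif was searched in a single spelling, so a window without a match may hold a site spelled otherwise.

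B2m is shown because its window held matches to an interferon response core and a kappa B site. The 250 bases before its start are chr2:122147437-122147686 on the plus strand, written 5′ to 3′, with both matches in capitals. The first begins at base -139 from the start and the second, which reads as a kappa B site on the opposite strand, at base -126.
B2m: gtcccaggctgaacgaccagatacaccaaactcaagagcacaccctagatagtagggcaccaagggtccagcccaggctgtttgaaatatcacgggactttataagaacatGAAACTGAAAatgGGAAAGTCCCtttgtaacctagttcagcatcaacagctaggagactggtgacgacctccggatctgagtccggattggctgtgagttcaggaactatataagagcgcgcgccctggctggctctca

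H2-K1 and H2-D1 are shown because both held the same kappa B match, in capitals, within nearly the same surroundings. The H2-K1 stretch is chr17:34000419-34000488 on the minus strand and its match begins at base -111 from the start, or -125 from the other start listed. The H2-D1 stretch is chr17:35262893-35262962 on the plus strand, with the match at base -171. The 2 stretches of 70 bases are identical at 69 positions, and the longest run shared by both windows is 47 bases and holds the match.
H2-K1: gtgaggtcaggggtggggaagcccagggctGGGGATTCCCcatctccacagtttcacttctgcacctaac
H2-D1: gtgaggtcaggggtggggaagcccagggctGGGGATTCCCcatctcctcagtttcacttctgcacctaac

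Psmb8 is shown for its gamma-activated match, in capitals, which begins at base -97. The motif's pattern fits these bases on either strand. The stretch is chr17:34198068-34198136 on the plus strand.
Psmb8: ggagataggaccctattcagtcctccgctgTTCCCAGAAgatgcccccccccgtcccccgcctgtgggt

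Psmb9 and Tap1 start back to back. Psmb9 starts at base 34187330 of chromosome 17 on the minus strand and Tap1 at base 34187556 on the plus strand, so that the 225 bases between them, chr17:34187331-34187555, lie before both genes. They are shown on the plus strand because both genes were higher in GFP-pos, and they hold none of the 3 motifs.
Psmb9 to Tap1: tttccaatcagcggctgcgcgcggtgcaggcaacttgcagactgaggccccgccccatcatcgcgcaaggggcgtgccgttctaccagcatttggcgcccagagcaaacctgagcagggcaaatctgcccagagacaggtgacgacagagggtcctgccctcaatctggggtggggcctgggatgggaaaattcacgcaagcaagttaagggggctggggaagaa

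B2m encodes beta-2-microglobulin, the light chain that every classical class I molecule needs to reach the cell surface. Its 1 probe set, 93088_at on chip A, read 2338, 1469.8 and 1108 on GFP-pos replicates 1, 2 and 3, and 205, 142 and 171 on the GFP-neg replicates. The lowest GFP-pos array, replicate 3, was well above the highest GFP-neg array. The means were 1638 ± 632 and 173 ± 31.2 (SD, n = 3 each), a ratio of 9.49. The log2 difference, GFP-pos minus GFP-neg, was 3.08 with an SE of 0.28 and a 95% interval of 2.38 to 3.78 (limma, adjusted p = 0.00114). Without GFP-pos replicate 3 it was 3.32.

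H2-K1 encodes the classical heavy chain that forms the peptide groove with beta-2-microglobulin, and 2 of its 3 probe sets were higher. Probe set 93120_f_at read 509, 483 and 444 in GFP-pos and 92.0, 80.4 and 89.0 in GFP-neg. These arrays were tight in both populations and did not overlap. The ratio was 5.49 and the log2 difference 2.26 with an SE of 0.08 (limma, adjusted p = 4.97e-05). Probe set 97125_f_at read 90.1, 68.0 and 63.0 against 23.6, 19.7 and 21.7, with replicate 1 highest in both populations. Its log2 difference was 1.24 with an SE of 0.13 (limma, adjusted p = 0.00163). Probe set 97700_at read 31.9, 36.1 and 38.0 against 28.7, 28.5 and 28.0. Its arrays did not overlap either, but the log2 difference of 0.21 (95% interval 0.03 to 0.38) did not pass in limma, with an adjusted p of 0.114. It passed only with array weights, which count an array that deviates for less (log2 difference 0.20, adjusted p = 0.0396).

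H2-D1, the other classical heavy chain measured, was higher by all 3 of its probe sets. Probe set 97540_f_at read 333, 326 and 246 in GFP-pos and 65.2, 46.6 and 50.6 in GFP-neg. GFP-pos replicate 3 was the lowest of its population and still well above every GFP-neg array. The means were 302 ± 48.6 and 54.1 ± 9.79 (SD, n = 3 each), with a ratio of 5.58 and a log2 difference of 2.18 with an SE of 0.16 (limma, adjusted p = 0.000487). Probe set 97541_f_at read 56.2, 44.3 and 46.7 against 14.6, 15.7 and 14.6, without overlap. Its log2 difference was 1.07 with an SE of 0.09 (limma, adjusted p = 0.000769). Probe set 101886_f_at read 72.7, 150.7 and 103 against 38.8, 34.9 and 30.6, so that GFP-pos replicate 2 was far above replicate 1 but no arrays overlapped. Its log2 difference of 1.25 with an SE of 0.23 had an adjusted p of 0.0149 in limma, which rose to 0.0510, 0.0570 and 0.0667 without GFP-neg replicates 1, 2 and 3 in turn.

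Class I heavy chains are near copies of one another, and the suffix of 5 of the 6 H2-K1 and H2-D1 probe sets (_f_at) marks probes shared by a gene family. How much each gene gives to these readings cannot be told apart. The mice are also of another strain than the reference genome. The 1 probe set of the 6 without that suffix, 97700_at, is also the 1 that was not higher. Another 3 probe sets of chip A name a member beside other genes and fall outside the rule. The one with 10 symbols, 102161_f_at, read 33.3, 55.0 and 50.3 in GFP-pos and 27.0, 27.1 and 25.2 in GFP-neg, a log2 difference of 0.53 that did not pass in limma (adjusted p = 0.0550). The other 2, 95773_at and 97174_r_at, each had a log2 difference of -0.07 and did not pass.

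**Figure D2:**
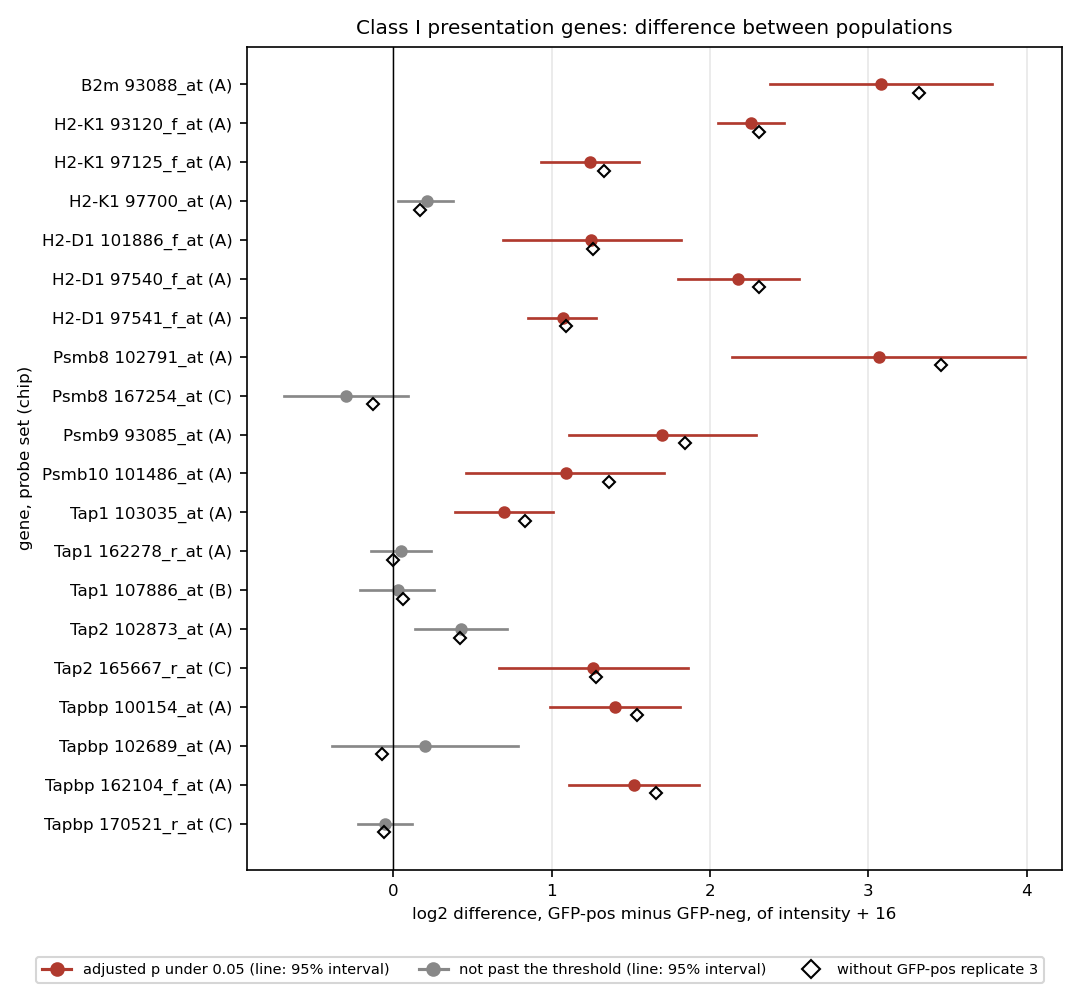
The plot gives the log2 difference of each of the 20 probe sets, GFP-pos minus GFP-neg, of intensity plus 16, with its 95% interval from limma as a line and the value without GFP-pos replicate 3 as a diamond. The 13 red probe sets passed at an adjusted p under 0.05 and all lie above 0, from 0.70 for Tap1 to 3.08 for B2m; the diamonds stay on the same side of 0 for each of them.

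The 3 immunoproteasome subunits were all higher in GFP-pos on chip A. Psmb8 encodes the subunit with chymotrypsin-like activity that takes the place of Psmb5. Its probe set 102791_at read 422, 244 and 132 on the GFP-pos arrays and 16.3, 15.5 and 12.2 on the GFP-neg arrays. GFP-pos replicate 3 was the lowest of its population at 0.395 times the mean of the other 2, and yet many times every GFP-neg array. The means were 266 ± 147 and 14.7 ± 2.21 (SD, n = 3 each), a ratio of 18.1, the largest among the 13. The log2 difference was 3.07 with an SE of 0.38 and a 95% interval of 2.14 to 3.99 (limma, adjusted p = 0.00333), and 3.46 without GFP-pos replicate 3 (adjusted p = 0.000546). As 16 is added before the logarithm, this value understates the change from the dim GFP-neg readings.

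The second probe set of Psmb8 did not follow. Probe set 167254_at on chip C read 85.4, 80.8 and 53.3 in GFP-pos and 85.4, 90.8 and 102 in GFP-neg. Here every GFP-pos array lay below every GFP-neg array, by the narrowest margin in replicate 1, as did 13.5% of the probe sets of that chip. The log2 difference was -0.30 (95% interval -0.69 to 0.09) and did not pass in limma, with an adjusted p of 0.313. It was -0.13 without GFP-pos replicate 3. The 2 intervals of Psmb8 do not meet, and where either probe set lies in the transcript was not examined.

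Psmb9 encodes the subunit that replaces Psmb6. Its probe set 93085_at read 153, 78.7 and 78.4 in GFP-pos and 18.8, 21.8 and 17.5 in GFP-neg. GFP-pos replicate 1 stood above the other 2, and no arrays overlapped. The ratio of means was 5.34 and the log2 difference 1.70 with an SE of 0.24 (limma, adjusted p = 0.0057). Psmb10 encodes the remaining subunit, which replaces Psmb7. Its probe set 101486_at read 195, 140.4 and 86.3 in GFP-pos and 56.2, 55.2 and 52.4 in GFP-neg, so that the GFP-neg arrays were tight and the GFP-pos arrays wide. The log2 difference was 1.09 with an SE of 0.26 and a 95% interval of 0.46 to 1.71 (limma, adjusted p = 0.035). That call was lost without GFP-pos replicate 2 (adjusted p = 0.103) and without GFP-neg replicates 1, 2 and 3 in turn (0.109, 0.103 and 0.121), while without GFP-pos replicate 3 the difference was 1.36 with an adjusted p of 0.00198. It was also lost with a pseudocount of 64 (log2 difference 0.75, adjusted p = 0.0625).

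The constitutive partners of these 3 subunits did not pass the test. Psmb5 read 329.6, 315 and 226 in GFP-pos and 244, 206 and 210.4 in GFP-neg, a log2 difference of 0.36 (95% interval -0.02 to 0.74, limma adjusted p = 0.189). Psmb6 read 109.9, 83.4 and 73.4 against 104, 97.4 and 100.5, with overlapping arrays and a log2 difference of -0.17 (95% interval -0.49 to 0.16, adjusted p = 0.485). Psmb7 read 199, 134 and 50.4 against 84.9, 65.4 and 59.3, a log2 difference of 0.60 (95% interval -0.45 to 1.65, adjusted p = 0.424). The low GFP-pos array is replicate 3 for each of the 3. Without it Psmb5 and Psmb7 passed in limma, with log2 differences of 0.52 (adjusted p = 0.014) and 1.08 (adjusted p = 0.0144), and Psmb6 did not, at -0.06. The Psmb7 probe set carries the suffix for a gene family and that of Psmb5 the one for several transcripts. The gap between an immunoproteasome subunit and its partner was not tested.

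**Figure D3:**
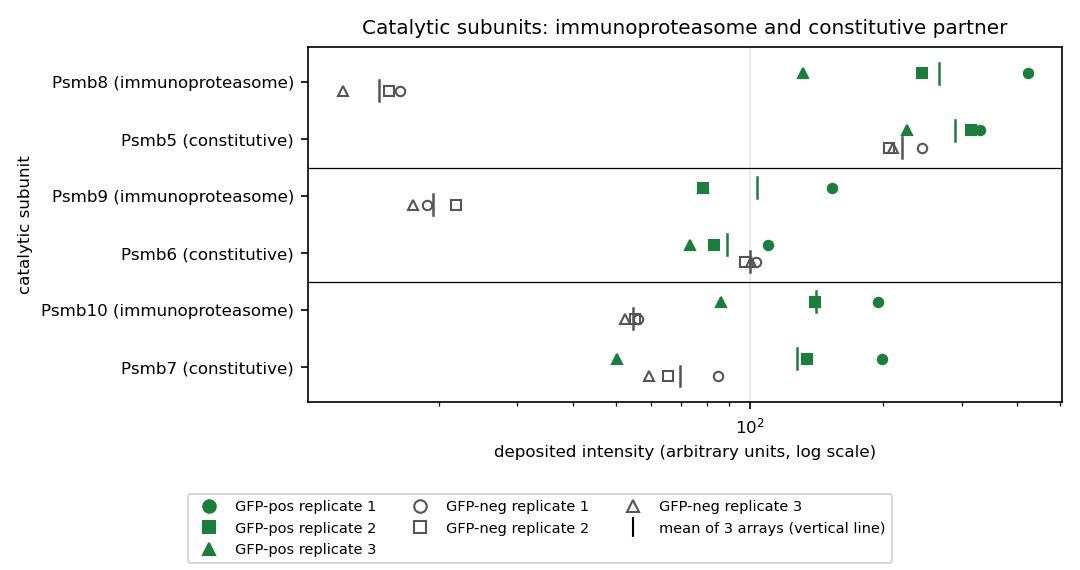
The plot gives the deposited intensity (arbitrary units, log axis) of the 3 immunoproteasome subunits and the constitutive subunit each replaces, on the 3 GFP-pos arrays (filled) and 3 GFP-neg arrays (open) of chip A, with vertical lines at the means. Filled and open symbols do not overlap for Psmb8, Psmb9 and Psmb10 and overlap for Psmb5, Psmb6 and Psmb7; in the Psmb9 row GFP-pos replicates 2 and 3 coincide at 78.7 and 78.4.

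Tap1 and Tap2 encode the 2 chains of the peptide transporter. Tap1 was higher by 1 of its 3 probe sets. Probe set 103035_at read 40.5, 44.8 and 28.8 in GFP-pos and 16.2, 18.8 and 16.03 in GFP-neg, with GFP-pos replicate 3 closest to the GFP-neg arrays and no overlap. The ratio was 2.23 and the log2 difference 0.70 with an SE of 0.13 (limma, adjusted p = 0.0145). The adjusted p was 0.0620 and 0.0659 without GFP-neg replicates 1 and 3. Probe set 162278_r_at read 17.3, 16.4 and 20.5 against 15.7, 16.6 and 18.2, and 107886_at on chip B read 18.9, 18.9 and 16.6 against 16.3, 21.0 and 15.4. Both overlapped and did not pass, with log2 differences of 0.05 (95% interval -0.14 to 0.24) and 0.03 (95% interval -0.21 to 0.26), whose sign turned under some settings.

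Tap2 was higher by its probe set on chip C and not by that on chip A. Probe set 165667_r_at on chip C read 99.7, 129 and 109 in GFP-pos and 62.0, 29.8 and 26.3 in GFP-neg, where GFP-neg replicate 1 stood above the other 2. It was the only 1 of the 3 chip C probe sets with every GFP-pos array above every GFP-neg array, as were 18.3% of the chip. The ratio was 2.85 and the log2 difference 1.26 with an SE of 0.24 (limma, adjusted p = 0.0295). The call was lost without GFP-pos replicates 1 and 2 (adjusted p = 0.0671 and 0.106) and without GFP-neg replicates 2 and 3 (0.111 and 0.0979). Probe set 102873_at on chip A read 38.7, 57.2 and 49.2 against 32.5, 32.6 and 29.3. It had no overlap and a log2 difference of 0.43 (95% interval 0.14 to 0.72), with an adjusted p of 0.0574 in limma, just above the threshold of 0.05. It passed without GFP-pos replicate 1 (log2 difference 0.54, adjusted p = 0.019), with limma-trend (adjusted p = 0.0403), with a pseudocount of 1 (0.0499) and with array weights (0.0154).

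Tapbp encodes tapasin, the chaperone that joins empty class I molecules to the transporter and edits their peptides. Of its 4 probe sets 2 were higher. Probe set 162104_f_at read 256, 295 and 201 in GFP-pos and 81.0, 62.6 and 87.2 in GFP-neg, with a log2 difference of 1.52 and an SE of 0.17 (limma, adjusted p = 0.00223). Probe set 100154_at read 213, 210.4 and 153 against 68.3, 49.5 and 70.6, with a log2 difference of 1.40 and an SE of 0.17 (limma, adjusted p = 0.00296). In both, GFP-pos replicate 3 was the lowest of its population and GFP-neg replicate 2 the lowest of the other, and the ratios of means were 3.26 and 3.06. Probe set 102689_at read 50.5, 45.5 and 97.8 against 49.5, 56.8 and 48.1. Only replicate 3 was high there, and the log2 difference of 0.20 (95% interval -0.39 to 0.79, limma adjusted p = 0.644) became -0.07 without it. Probe set 170521_r_at on chip C read 6.65, 6.74 and 6.97 against 9.19, 7.29 and 6.48, a log2 difference of -0.05 (95% interval -0.22 to 0.12).

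Among the GFP-pos arrays, replicate 1 was the highest of the 3 in 9 of the 13 higher probe sets, replicate 2 in 4 and replicate 3 in 0. Of all 2723 higher probe sets of the 3 chips these shares were 41.9%, 37.3% and 20.7%. Replicate 3 was the lowest in 10 of the 13, and in 53.3% of all higher probe sets. By their log2 values over the 6 arrays of chip A, the probe sets most like B2m among 10832 others were H2-K1 97125_f_at (Pearson r = 0.9991), Gja1 100065_r_at (0.9979), a gap junction protein, and Itga6 95511_at (0.9978), an integrin chain. The Gja1 probe set was dim, at 37.7, 26.2 and 23.5 in GFP-pos and 4.98, 0.91 and 2.91 in GFP-neg, all below the array medians of the chip. Most like Psmb8 were Ctla2b (0.9984), Tspo (0.9983) and Dab2 (0.9980). With 6 arrays in 2 populations these values mostly restate the difference between the populations, and they are given as a description.

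The rest of the pathway was measured by 1 probe set a gene, the brightest with that symbol alone on the first chip that holds it. By that measure 8 of the 9 genes were higher and 0 lower, with a median log2 difference of 1.70 and a range of 0.43 to 3.08, and the gene that did not pass was Tap2, here by its chip A probe set. Over all 15964 genes 9.42% were higher, 11.2% were lower and the median was 0.04. These shares are the background for each list below. In 5 lists of related genes, 12 of the 84 measured were higher and 4 lower, with a median of 0.08. At an unadjusted p under 0.05 their counts were 24 and 5, against 17.3% of all genes in each direction. Without GFP-pos replicate 3 they were 17 and 8, while over all genes the shares rose as well, to 13.9% higher and 15.8% lower.

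Among genes that trim peptides or load class I, 1 of 16 measured was higher and 1 lower, with a median log2 difference of 0.07. With single arrays left out the higher count was 2 without GFP-neg replicate 1 and 0 without GFP-neg replicate 2, and the lower count was 2 without GFP-pos replicate 2 or 3. Erap1, the aminopeptidase that trims peptides inside the endoplasmic reticulum, read 92.1, 61.8 and 44.1 in GFP-pos and 24.4, 14.9 and 19.5 in GFP-neg on chip B. Its log2 difference was 1.17 with an SE of 0.22 (limma, adjusted p = 0.0125, and 0.0537 without GFP-neg replicate 2). Npepps, a cytosolic aminopeptidase, was lower, at -0.87 with an SE of 0.15 (adjusted p = 0.0112). The chaperones of the loading complex did not pass: Pdia3 was at 0.63 (adjusted p = 0.0825), Canx at 0.16 (0.791) and Calr at 0.02 (0.942). Hspa5, the brightest of the list that did not pass, was at -0.10 (adjusted p = 0.84).

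Among the proteasome partners 1 of 10 measured was higher and 0 lower, with a median of 0.06. That gene was Pomp, which assembles new proteasomes, at 0.50 with an SE of 0.10 (limma, adjusted p = 0.0222). Its call was lost without any of the arrays but GFP-pos replicate 3, with adjusted p of 0.0531 and 0.0702 without GFP-pos replicates 1 and 2 and of 0.0549, 0.0566 and 0.0731 without GFP-neg replicates 1, 2 and 3. Psme1, a chain of the PA28 activator that opens the proteasome, read 152, 139 and 89.4 in GFP-pos and 85.2, 82.3 and 63.1 in GFP-neg, without overlap. Its log2 difference of 0.60 did not pass (adjusted p = 0.101) but did without GFP-pos replicate 3, at 0.80 (adjusted p = 0.00913). Psme2, the other chain of that activator, is not analysed here. Without that array 4 of the 10 were higher, namely Psmb5, Psmb7, Psme1 and Pomp, beside 13.9% of all genes in the same fit. The higher count was 0 without any 1 of the other 5 arrays, and the lower count was 1 without GFP-pos replicate 2 or GFP-neg replicate 2.

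Of the other class I and class I like genes 5 of 15 measured were higher and 1 lower, with a median log2 difference of 0.27. The higher count was 3 without GFP-pos replicate 2 or any 1 of the 3 GFP-neg arrays, and 3 with the replicate block. Fcgrt encodes the neonatal Fc receptor, a class I like molecule that pairs with beta-2-microglobulin and returns IgG to the blood. It read 91.3, 86.6 and 68.1 in GFP-pos and 8.35, 8.20 and 8.96 in GFP-neg, a log2 difference of 1.99 with an SE of 0.11 (limma, adjusted p = 0.000178). H2-K2 was at 1.84 (adjusted p = 0.000761) by a family probe set and H2-M3, which shows formylated peptides, at 1.01 (adjusted p = 0.000759). Cd1d1, which shows lipids and also pairs with beta-2-microglobulin, went the other way. It read 460.0, 471 and 372 in GFP-pos and 976, 861 and 962 in GFP-neg, a log2 difference of -1.08 with an SE of 0.11 (adjusted p = 0.0018). Cd1d2, its near copy and the brightest that did not pass, was at 0.74 (adjusted p = 0.148).

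Among genes of the routes known to induce class I genes, 5 of 30 measured were higher and 2 lower, with a median of 0.14. The list holds inhibitors of these routes as well, Nfkbia and Ptpn2 among them, so the counts are not of inducers alone. The lower count was 4 without GFP-pos replicate 3 and 1 without GFP-pos replicate 2 or GFP-neg replicate 1 or 3. Tnfrsf1b, a TNF receptor, read 124, 128 and 106 against 16.3, 16.8 and 15.9, a log2 difference of 2.06 with an SE of 0.08 (limma, adjusted p = 6.84e-05). Nfkbia, the NF-kappa B inhibitor that NF-kappa B itself induces, read 342, 645 and 723 against 114, 78.2 and 127, a log2 difference of 2.21 with an SE of 0.31 (adjusted p = 0.0055). Ifnar2, a chain of the type I interferon receptor, was at 1.63 (adjusted p = 0.00163). Ptpn2, a tyrosine phosphatase, was at -1.10 (adjusted p = 0.0236), a call lost without GFP-pos replicate 2 (0.065) and GFP-neg replicates 1 and 3 (0.0918 and 0.0947). Nfyc, a subunit of a factor that binds class I and class II promoters, was at -0.91 (adjusted p = 0.00563), while its partner Nfyb did not pass at 0.63 (adjusted p = 0.142). The remaining higher genes were Irf9 at 1.05 (limma, adjusted p = 0.00111) and Rela at 0.47 (adjusted p = 0.00455). Both calls held whichever array was left out. Irf1, an interferon-induced factor, did not pass at 0.49 (adjusted p = 0.129), nor did Ifngr1, a chain of the interferon gamma receptor, at 0.18 (adjusted p = 0.311).

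Class II presentation, which serves CD4+ T cells and is known from professional antigen-presenting cells, was measured by 13 of 13 listed genes. Of these 0 were higher and 0 lower in limma, with a median log2 difference of 0.01, and at an unadjusted p under 0.05 the counts were 1 and 0. With limma-trend they were again 0 and 0. Cd74, the invariant chain, read 42.6, 40.5 and 38.1 in GFP-pos and 31.6, 36.2 and 33.4 in GFP-neg, a log2 difference of 0.18 (95% interval 0.01 to 0.36, adjusted p = 0.153). H2-DMa, the brightest that did not pass, read 60.1, 54.6 and 247 against 108, 137 and 113. Its value was -0.27 over all arrays and -0.88 without GFP-pos replicate 3 (adjusted p = 0.00445).

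**Figure D4:**
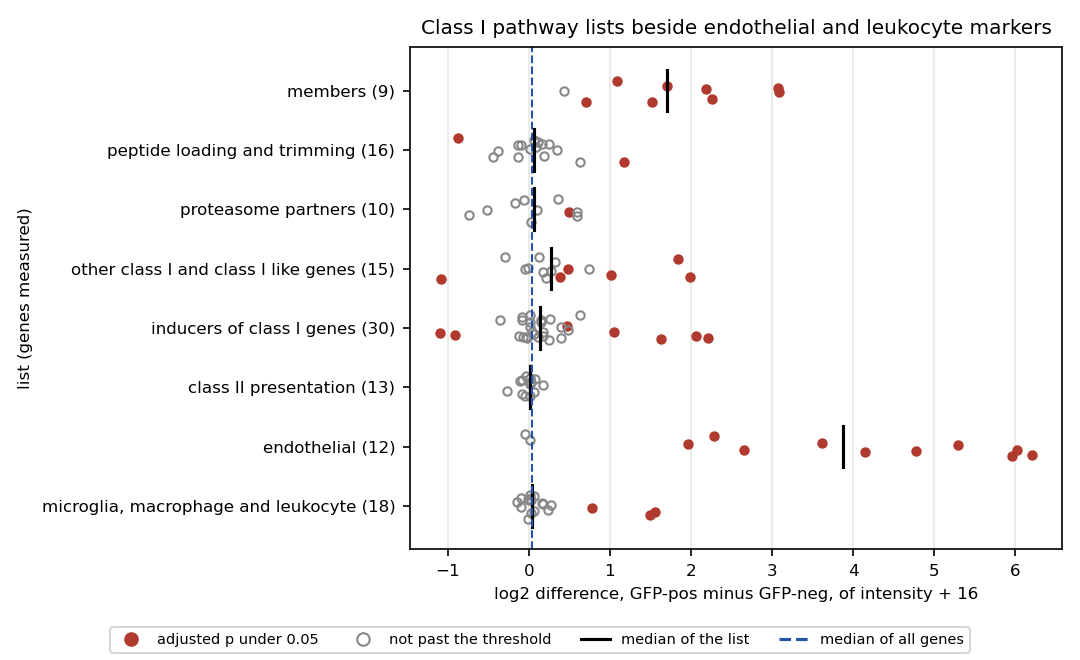
The plot gives the log2 difference, GFP-pos minus GFP-neg, of intensity plus 16, for each gene of the class I list, 5 related lists and 2 marker lists, with red points past an adjusted p of 0.05, a black line at each list's median and a dashed line at the median of all genes, 0.04. The class I genes lie at a median of 1.70, the 5 related lists between 0.01 and 0.27, and the endothelial markers at 3.88.

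Leukocytes carry abundant class I and some express Tie2, so their markers are given beside these results. Of 18 measured markers of microglia, macrophages and leukocytes 3 were higher and 0 lower, with a median log2 difference of 0.04. Of all genes 9.42% were higher and 11.2% lower. Laptm5 was at 1.56 (limma, adjusted p = 0.000636), C1qb at 0.78 (adjusted p = 0.00662) and Fcer1g at 1.5 (adjusted p = 0.0421). The call of Fcer1g was lost without GFP-pos replicate 1 (0.0752) and without GFP-neg replicates 1, 2 and 3 (0.132, 0.123 and 0.129). Summed over the 17 on chip A they read 892, 1034 and 1737 in GFP-pos replicates 1, 2 and 3 and 647 to 674 in GFP-neg. The high sum of replicate 3 rests on Csf1r, whose probe set read 37.3, 41.2 and 930 on the same GFP-pos arrays. The sums of replicates 1 and 2 do not rest on Csf1r, and both were above every GFP-neg sum.

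The 4 markers taken as defining leukocytes belong to that list, and the 3 higher ones, Laptm5, C1qb and Fcer1g, are not among them. Aif1 at 24.3 to 27.1 and Tyrobp at 25.4 to 32.0 read below every array median of chip A and may be background. Ptprc, Aif1, Csf1r and Tyrobp together read 117 and 129 in GFP-pos replicates 1 and 2, below the GFP-neg arrays at 179 to 212, and 1044 in replicate 3. The Csf1r probe set read 37.3, 41.2 and 930 in GFP-pos and 94.3 to 112 in GFP-neg. Without Csf1r the other 3 together read 79.6, 87.5 and 114 in GFP-pos and 84.4 to 100.1 in GFP-neg, so that the populations overlapped. Ptprc, the pan-leukocyte CD45, read 29.3, 34.3 and 56.7 against 34.5, 41.8 and 37.6, a log2 difference of 0.03 (95% interval -0.43 to 0.48, limma adjusted p = 0.945). Of the 4, 0 were higher and 0 lower in limma, also at an unadjusted p under 0.05 and with limma-trend, and 0 were listed at 0. Without GFP-pos replicate 3, Csf1r was lower at -1.13 (limma, adjusted p = 0.00108). Among 11 lymphocyte markers 1, Ms4a1, was higher at 0.38 (limma, adjusted p = 0.0214) and 0 were lower. That call was lost with any array left out but GFP-pos replicate 3 (adjusted p = 0.0509 to 0.0857). Nkg7 did not pass at 0.49 (adjusted p = 0.0989). At an unadjusted p under 0.05, 5 of the 11 were higher and 1 lower, against 17.3% of all genes in each direction. Without GFP-pos replicate 3, 2 of the 11 were higher and 1 lower, beside 13.9% and 15.8% of all genes. Of 10 pericyte markers 0 were higher and 0 lower in limma, by limma-trend too, and 0 and 1 at an unadjusted p under 0.05. Without GFP-pos replicate 3 the pericyte marker Rgs5 was lower at -0.63 (limma, adjusted p = 0.0143). The part of the 3 higher leukocyte markers and of Ms4a1 in the class I values was not tested.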

How the data were processed

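RNA of GFP-positive and GFP-negative retinal cells was measured on Affymetrix MGU74v2 arrays, 3 for each population on each of chips A, B and C. The authors deposited 1 intensity per probe set and array, on a linear scale with no negative value. The steps from probes to these values (summary, background, normalization) are not given in the sources used here. Another method could change every difference. No detection calls were used, so a dim reading may be background.

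Groups and replicate numbers came from the sample titles. Gene names came from the platform annotation, and no gene was read from a probe set with several symbols. For each chip, log2 values were computed here from the deposited intensities plus 16 and given to limma 3.58.1 in R 4.3.3 (two-sided tests by lmFit, then eBayes). Benjamini-Hochberg adjusted p-values, taken over the chip's own probe sets, counted as passed under 0.05. The fit was tested on simulated data with independent noise on each array and 200 changed probe sets a chip. On chips A, B and C it recovered 64%, 73% and 77% of log2 changes of 1. Of changes of 2 it recovered 90%, 92% and 92%, and false calls numbered 15, 5 and 7. No simulated array stood apart as GFP-pos replicate 3 does, so these shares need not hold for the real arrays. Counts, lists, motif searches and figures used Python 3.11.15, pandas 2.3.3 and matplotlib 3.10.9.

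The labels do not say whether the replicate numbers pair the arrays. Deviations of same-numbered arrays from their population means correlated from -0.368 to 0.292 over the chips. With so few arrays, and GFP-pos replicate 3 apart from the others, these values cannot settle whether arrays were paired. No replicate block was used in the main fit.

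The members and lists, and array weights as an alternative, were chosen with earlier results of these data known. Every probe set of the 9 genes is named. In each list up to 3 called genes in each direction with the largest differences, the brightest gene not called and a few fixed genes of the pathway are named, and for B2m and Psmb8 the 3 most correlated probe sets. Further members of a list that changed with GFP-pos replicate 3 or that define leukocytes, and Irf9 and Rela, were named after their values were seen. Alternatives changed the scaling (quantile normalization or median-centred arrays), the pseudocount (1 or 64), the probe sets (the brighter ones alone, or those without a suffix), the model (limma-trend, the replicate block or array weights), the call (p adjusted across the 3 chips, under 0.01, or with at least 2-fold) and the arrays, of which each was omitted once.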

Additional observations from a re-analysis of the deposited data

How the results depend on the processing

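The count of 13 higher probe sets fell to 6 when probe sets with a suffix were left out, which removes 9 of the 20, and ran from 9 to 13 with each array left out in turn and from 9 to 15 under the other alternatives. Without suffix probe sets the 6 were 1 each of B2m, Psmb8, Psmb9, Psmb10, Tap1 and Tapbp. H2-K1, H2-D1 and Tap2 then had no higher probe set. The count of lower ones was 0 under every alternative run. With the replicate block 12 were higher, Tap2 165667_r_at being the one lost (adjusted p = 0.0946), and 11 pathway list genes were higher and 3 lower. The 12 higher pathway list genes became 24 with array weights, and 8 to 17 with each array left out. The 4 lower became 3 to 8 with each array left out, the 8 without GFP-pos replicate 3, and 2 at an adjusted p under 0.01 as at a minimum of 2-fold. Of the members' log2 differences under each alternative, 291 kept direction and side of the threshold, 19 lost the call, 5 gained it and 8 turned sign, all 8 in probe sets near 0. Tap1 162278_r_at was at -0.01 with array weights and from -7.5e-05 to 0.08 with each array left out. Tap1 107886_at was at -0.01 with quantile normalization, median-centred arrays and array weights, and from -0.02 to 0.10. Tapbp 102689_at was at -0.02 with array weights and from -0.07 to 0.37. Of the list genes, with each array left out, Hspa5 ran from -0.33 to 0.01 (0.03 with array weights), Canx from -0.21 to 0.35 (-0.13), Calr from -0.05 to 0.09 (-0.0017 with quantile normalization), H2-DMa from -0.88 to 0.07, Kdr from -0.13 to 0.18 (-0.29 with quantile normalization), Csf1r from -1.13 to 0.95 (-0.85 with array weights), Ptprc from -0.18 to 0.17 (-0.09) and Cspg4, a pericyte marker, from -0.15 to 0.02. The causes were not tested. By list, array weights gave 10 higher class I like genes in place of 5, 4 proteasome partners and 3 peptide loading genes in place of 1 each, and 1 class II gene in place of 0. Chip-wide counts moved more. Of chip A 1129 probe sets were higher and 1149 lower, 638 to 1738 and 674 to 1731 with each array left out, and 2155 and 1842 with array weights. On chip B 1191 and 1405 became 2299 and 1916 with array weights and 657 to 1473 and 995 to 1657 with each array left out. On chip C 403 and 698 became 2320 and 1604, and 141 to 1559 and 411 to 1417, and with the replicate block 187 and 454. At an adjusted p under 0.01 the higher and lower counts were 593 and 560 on A, 503 and 801 on B and 120 and 338 on C, and with at least 2-fold 552 and 543, 406 and 678, and 145 and 380. Without suffix probe sets chip C had 239 and 414.

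The limits are few arrays, no detection calls, 1 array of GFP-pos that stands apart, an unstated normalization and family probe sets of class I heavy chains.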
